A study of Mus musculus with 24 samples.

Results

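The genes of the major histocompatibility complex (MHC) and of antigen presentation were read in RNA-seq counts from the brain of mice homozygous for the T(5G2;8A1)GSO translocation (16GsoT/T) and of wild type (WT) mice. The 10 genes were taken by symbol from a fixed list, among 25793 gene symbols of the count tables, and all 10 were listed: the class I heavy chains *H2-K1*, *H2-D1* and *H2-T23*, the class I light chain *B2m*, the peptide transporter genes *Tap1* and *Tap2*, the class II chains *H2-Aa*, *H2-Ab1* and *H2-Eb1*, and the invariant chain *Cd74*. The 24 libraries came from cerebellum (CB) and hippocampus (HC) at postnatal day 14 (P14) and day 35 (P35), with 3 libraries of each genotype, which gives 8 groups. The mutants are homozygous for a reciprocal translocation of chromosomes 5 and 8 whose break on chromosome 5 lies between *Auts2* and *Galnt17*. They were bred from homozygous parents, and the animals were male. The libraries of a group carry separate names, and each was taken to come from a separate mouse. The labels name a C57BL/6 background for all groups, while the study's methods describe a cross of C57BL/6 with C3H/He (B6C3), and the names of the WT libraries outside P14 CB carry B6C3. C57BL/6 mice have the b haplotype of the H2 complex and C3H mice the k haplotype, so animals of such a cross can differ at these genes for reasons other than the translocation. *H2-Ea*, a class II gene that the b haplotype does not express, could not be read, since neither *H2-Ea* nor *H2-Ea-ps* is among the symbols of the count tables.

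Class I molecules are heavy chains paired with beta-2-microglobulin, the product of *B2m*. They carry peptides from inside the cell, which the TAP1 and TAP2 transporter moves into the endoplasmic reticulum, and show them to CD8+ T cells. Class II molecules are alpha and beta chains that are assembled with the invariant chain and show peptides taken up from outside to CD4+ T cells. In the brain, class I genes are expressed in endothelial cells, microglia and neurons, and class II genes mainly in macrophages and dendritic cells of the borders. Interferons raise both classes.

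The H2 genes lie on chromosome 17. In the mouse build NCBIM37 with the GENCODE vM1 annotation, *H2-K1* is at chr17:34132962-34137278 on the minus strand, *H2-D1* at chr17:35399675-35404444 on the plus strand and *H2-T23* at chr17:36166718-36169800 on the minus strand. *Tap1* (chr17:34324498-34334170) and *Tap2* (chr17:34340472-34353266) both lie on the plus strand, and *B2m* lies outside the complex, at chr2:121973422-121978819. Counts here are reads on the exons of a whole gene, and the counting option for strand is not given in the sources used here. *H2-T23* lies inside *A930015D03Rik* (chr17:36131398-36175380), a gene of the opposite strand, so that reads of the pair cannot be told apart without strand.

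The promoters of *H2-K1*, *H2-D1* and *B2m* are shown because the results turn on these genes. Each window runs from 250 bases before to 50 bases after the annotated start and is from RefSeq on GRCm38.p6, 5′ to 3′ on the strand of the gene. The windows are chr17:34000284-34000583 (minus strand) for *H2-K1*, chr17:35262844-35263143 (plus strand) for *H2-D1* and chr2:122147437-122147736 (plus strand) for *B2m*. Capitals mark GGATTCCCC, part of the kappa B site of enhancer A, TTTCACTT, part of the interferon response element, and CTGATTGG, the Y box, on either strand.
H2-K1: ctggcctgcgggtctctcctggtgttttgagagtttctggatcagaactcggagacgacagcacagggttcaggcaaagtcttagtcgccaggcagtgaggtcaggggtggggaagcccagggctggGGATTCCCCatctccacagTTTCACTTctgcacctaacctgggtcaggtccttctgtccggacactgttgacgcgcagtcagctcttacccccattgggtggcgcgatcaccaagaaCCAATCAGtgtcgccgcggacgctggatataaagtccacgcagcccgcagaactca
H2-D1: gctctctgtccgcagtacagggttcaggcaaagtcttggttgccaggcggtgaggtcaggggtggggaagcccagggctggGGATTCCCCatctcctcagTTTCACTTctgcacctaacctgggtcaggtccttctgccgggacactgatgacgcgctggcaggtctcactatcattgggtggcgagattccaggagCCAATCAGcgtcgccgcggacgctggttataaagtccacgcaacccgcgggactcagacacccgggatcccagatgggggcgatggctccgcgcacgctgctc
B2m: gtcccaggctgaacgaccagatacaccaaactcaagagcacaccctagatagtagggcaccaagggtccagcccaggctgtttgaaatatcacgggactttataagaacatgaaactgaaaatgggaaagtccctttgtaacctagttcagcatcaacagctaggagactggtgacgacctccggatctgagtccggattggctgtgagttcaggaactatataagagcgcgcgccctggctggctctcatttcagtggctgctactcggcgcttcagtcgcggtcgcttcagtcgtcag
Both heavy chain windows held all 3 motifs in the same order. In *H2-D1* they stood at bases 82 to 90, 101 to 108 and 198 to 205 of the window, and in *H2-K1* at bases 128 to 136, 147 to 154 and 245 to 252. Another annotated start of *H2-K1* has a window at chr17:34000298-34000597, not shown. It held the same motifs at bases 142 to 150, 161 to 168 and 259 to 266. The *B2m* window held none of these exact letters. Of 32851 promoter windows, 0.283% held the kappa B letters, 1.6% the interferon response letters and 4.1% the Y box letters on either strand. Of the 10 genes, 7 had a window in this table, and the windows of *H2-T23*, *H2-Aa*, *H2-Eb1* and *Tap1* held the Y box letters alone.

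The heavy chain genes are close relatives, which bears on how their reads map. The longest identical stretch of the coding sequences of *H2-K1* and *H2-D1* was 91 bases, shown here as the place where a read cannot be assigned to either gene.
H2-K1 and H2-D1: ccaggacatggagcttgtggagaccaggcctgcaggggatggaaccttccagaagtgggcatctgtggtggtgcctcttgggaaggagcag
Of all 50-base words in the annotated coding transcripts of *H2-D1*, 12.8% also occurred in another gene, against 7.29% for *H2-K1* and 15.7% for *H2-T23*. *B2m*, *H2-Aa*, *H2-Ab1*, *H2-Eb1* and *Cd74* shared no such word with another gene. For *Tap2* the shared words (9.52%) were those of the overlapping model *Gm15821*, and for *Tap1* (6.27%) mostly those of its neighbour *Psmb9*.

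Reads on genes numbered 22893603 to 40564789 per library in P14 CB, 10572358 to 13245150 in P14 HC, 5140843 to 7974640 in P35 CB and 2563968 to 4127478 in P35 HC. *Wbscr17*, the listed symbol of *Galnt17* beside the breakpoint, was lower in each 16GsoT/T library than in each WT library of its region and age, so the genotype labels held for every library. In P14 HC, the WT and 16GsoT/T libraries ran on different lanes, and lane and genotype cannot be told apart. In P35 CB, 37.6% to 37.7% of the reads of WT libraries fell on genes, against 42.3% to 42.4% in 16GsoT/T. The P14 CB libraries stood apart, with 64.8% to 68.1% of reads on genes. This share was 40.7% to 42.3% in P14 HC and 39.3% to 41.1% in P35 HC.

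Expression is given as CPM, the count scaled to the library's reads on genes, scaled by the TMM method within each region and age. A gene was called where the adjusted p of edgeR's quasi-likelihood test over all tested genes was at most 0.05.

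Per kilobase of exon, with all 24 libraries scaled together, *B2m* had the highest level of the 10 genes in all 8 groups, with means between 27.6 CPM per kb (± 2.97, SD, n = 3) in 16GsoT/T P35 CB and 70.3 CPM per kb (± 9.64) in 16GsoT/T P35 HC. *H2-D1* was second in every group, from 4.79 CPM per kb (± 2.66) in 16GsoT/T P14 HC to 40.6 CPM per kb (± 12.4) in WT P35 CB. *H2-K1* followed in every group, from 1.63 CPM per kb (± 0.0581) in WT P14 CB to 8.21 CPM per kb (± 5.5) in 16GsoT/T P35 HC. The order of *H2-D1* and *H2-K1* was clear in WT CB and not in P35 HC, where WT means of 9.39 (± 2.33) and 7.53 (± 2.7) CPM per kb lay within each other's spread. *H2-T23*, a heavy chain of the nonclassical kind that presents signal peptides, stayed between 1.33 and 2.99 CPM per kb. *Tap2* lay between 0.762 and 2.18 and *Tap1* between 0.292 and 0.665 CPM per kb. Group means of the class II chains reached at most 0.503 CPM per kb for *H2-Aa*, 0.729 for *H2-Ab1* and 1.16 for *H2-Eb1*, whereas *Cd74* lay between 1.23 and 2.21 CPM per kb.

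The WT libraries show which members differ between the regions. At P14, 6 of 9 tested members were called between CB and HC, where 77.2% of all tested genes were called. *H2-D1* was higher in CB, by 1.29 ± 0.14 (SE) on the log2 scale (edgeR adjusted p = 9.6e-06), with 35.9, 37.0 and 45.0 CPM in CB against 12.9, 17.6 and 18.01 CPM in HC. *H2-K1* went the other way, lower in CB by 2.14 times (log2 difference -1.10 ± 0.16), with 4.09 to 4.37 CPM in CB and 7.56 to 10.9 CPM in HC. The pair of classical heavy chains thus differed between the regions in opposite directions, while *H2-D1* stayed above *H2-K1* in both regions. No library of one region overlapped the other for either gene. *Tap2* (-1.203 ± 0.17), *H2-T23* (-0.78 ± 0.18), *H2-Eb1* (-1.04 ± 0.41) and *Tap1* (-0.51 ± 0.21) were also lower in CB. The call of *H2-Eb1* was lost in 5 and that of *Tap1* in 4 of the 6 fits with 1 library left out. At P35, *H2-D1* was the 1 member called of 6 tested, where 56.0% of all genes were called, and it was higher in CB by 2.06 ± 0.23 (edgeR adjusted p = 6.24e-06). Without the HC library N10, *H2-K1* and *B2m* were called there as well. Region went with separate lane labels and with depth at both ages, and at P14 also with the share of reads on genes. Region cannot be told apart from these. *B2m* differed by -0.26 ± 0.12 at P14 and by -0.22 ± 0.15 at P35, and was not called.

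In P35 CB, *B2m* and *H2-K1* fell in 16GsoT/T, 2 of 7 tested members, where 35.3% of all tested genes were called. *B2m* stood at 42.5, 43.3 and 55.5 CPM in WT and at 21.8, 22.6 and 26.7 CPM in 16GsoT/T. All 3 mutant libraries were below all 3 WT libraries, and the mutant values lay close together. The difference was 1.97 times, or -0.98 ± 0.12 (SE, n = 3 per genotype) on the log2 scale (edgeR adjusted p = 9.38e-05). *H2-K1* stood at 12.4, 13.7 and 19.98 CPM in WT and at 2.75, 7.39 and 8.37 CPM in 16GsoT/T, again without overlap. It fell by 1.31 ± 0.29 on the log2 scale, a difference of 2.47 times (edgeR adjusted p = 0.00435).

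The other 5 tested members of P35 CB had negative values and were not called. For *H2-D1*, WT libraries held 71.4, 111 and 136 CPM and mutant libraries 3.43, 63.9 and 66.2 CPM. The groups did not overlap, but one mutant library was far below the other two, and the difference of -1.23 ± 0.49 had an adjusted p of 0.0667 by edgeR, and it was called without either of 2 mutant libraries (C19 or C20). *Tap1* (-0.75 ± 0.33, 1.28 to 1.79 CPM in 16GsoT/T against 1.91 to 3.23 CPM in WT), *Tap2* (-0.37 ± 0.20), *H2-T23* (-0.33 ± 0.25) and *Cd74* (-0.55 ± 0.51) had negative values as well. The median over the 7 tested members was -0.75, against -0.004 over all tested genes. *H2-Aa*, *H2-Ab1* and *H2-Eb1* did not pass the filter on low counts here, with 1 to 10 counts per library.

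Endothelial and meningeal fibroblast markers were lower alongside these values in P35 CB, and other lists of cell type markers were not. Against the 35.3% of all tested genes called there, 11 of 13 endothelial markers were called lower and none higher, with a median of -0.82, and their summed level was 206 to 252 CPM in 16GsoT/T against 396 to 433 CPM in WT. Of 7 meningeal fibroblast markers, 5 were called lower, with sums of 176 to 209 CPM against 252 to 295 CPM. Microglia markers summed to 194 to 205 CPM in 16GsoT/T and 187 to 212 CPM in WT, and 1 of 16 tested, *C1qb*, was called lower by edgeR and not by DESeq2, at 7.92 to 10.5 CPM against 9.80 to 16.2 CPM. Dendritic cell markers summed to 79.4 to 81.2 CPM against 68.0 to 80.4 CPM, and no B and T cell marker passed the filter. Border macrophage markers summed to 11.2 to 13.6 CPM against 11.8 to 17.2 CPM, with none called. Neuron markers summed to 6124 to 6390 CPM against 4906 to 5319 CPM, with called genes in both directions. The part of these markers in the fall of *B2m* and *H2-K1* was not tested. In tissue RNA, fewer cells of a type and less RNA per cell cannot be told apart.

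**Figure D1:**
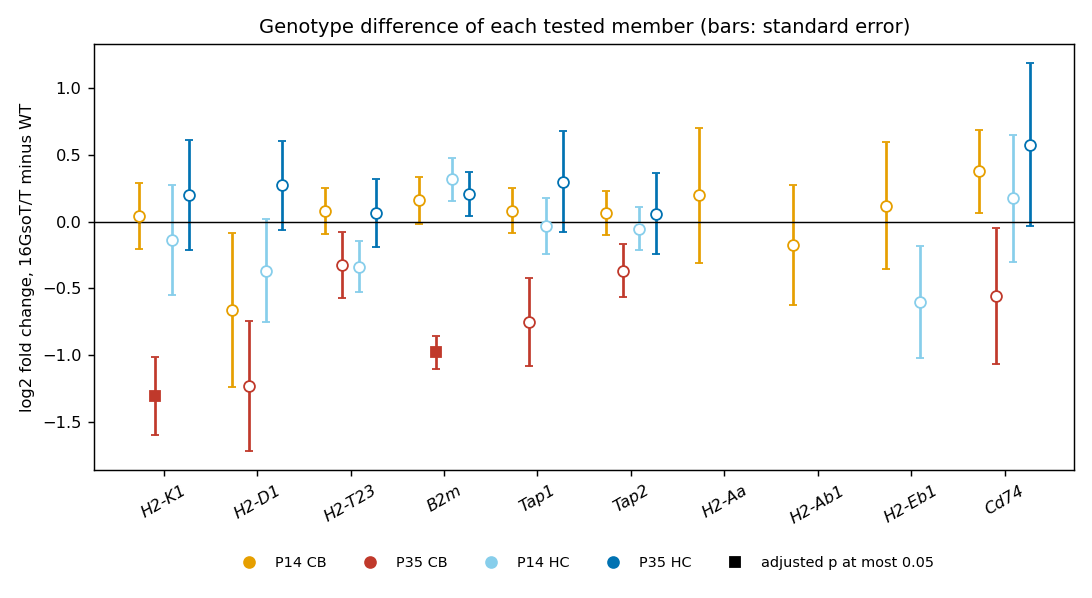
Log2 fold change (16GsoT/T minus WT) of each member in each comparison where it passed the filter, with standard errors and n = 3 per genotype. Filled squares mark adjusted p of at most 0.05: only *H2-K1* (-1.31) and *B2m* (-0.98) in P35 CB were called, and all 7 tested members of P35 CB lie below 0.

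In the other 3 genotype comparisons no member was called by edgeR or by DESeq2, and none had an unadjusted p of at most 0.05 in the edgeR fits. The share of all tested genes called was 0.506% in P14 CB, 0.814% in P14 HC, with 0.135% in P35 HC. In P14 CB all 10 members were tested, and 8 had a positive value. *B2m* stood at 31.4, 32.1 and 38.3 CPM in WT and 27.8, 36.8 and 49.3 CPM in 16GsoT/T, a difference of 0.16 ± 0.17. The mutant libraries spanned the whole range of WT. In P14 HC, *B2m* stood at 35.1, 40.1 and 47.7 CPM in WT and 39.2, 55.0 and 58.7 CPM in 16GsoT/T (0.32 ± 0.16). In P35 HC it stood at 38.6, 57.7 and 58.2 CPM in WT and 54.9, 55.6 and 68.4 CPM in 16GsoT/T (0.21 ± 0.17). The *B2m* values thus had a positive sign in these 3 comparisons and overlapped between genotypes in each. *Tap1* and *Tap2* differed by at most 0.30 ± 0.38 and 0.06 ± 0.17 outside P35 CB.

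The fall of *B2m* in P35 CB differed from its values at P14 and in HC. In the interaction of genotype with age in CB, 2 of 10 tested members were called, where 18.6% of all genes were called: *B2m* (-1.15 ± 0.25, edgeR adjusted p = 0.0057) and *H2-K1* (-1.35 ± 0.44, adjusted p = 0.0408). The call of *H2-K1* was lost in 9 of the 12 fits with 1 library left out, and that of *B2m* in none. In the interaction of genotype with region at P35, 1 of 7 tested members was called, where 9.61% of all genes were called, and it was *B2m* (-1.19 ± 0.22, edgeR adjusted p = 0.00249). For *H2-K1* this difference was -1.51 ± 0.60 and for *H2-D1* -1.53 ± 0.81, and neither was called, though *H2-K1* was called without B11 (-1.91, edgeR adjusted p = 0.0132). No member was called in the interaction with age in HC (0.00666% of all genes) or with region at P14 (0.00%), and none had an unadjusted p of at most 0.05 in them.

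**Figure D2:**
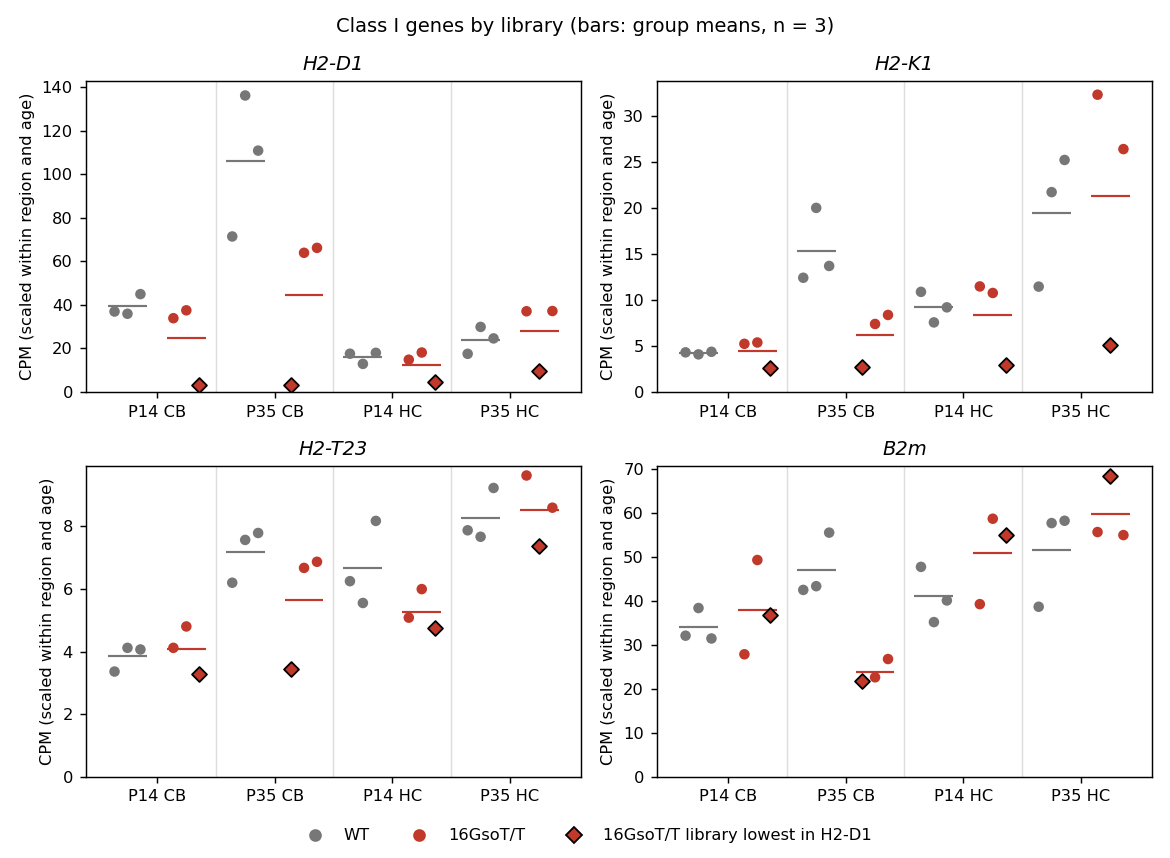
CPM of *H2-D1*, *H2-K1*, *H2-T23* and *B2m* in each library (points) with group means (bars, n = 3), WT in grey and 16GsoT/T in red. Diamonds mark the 16GsoT/T library with the lowest *H2-D1* of each region and age: it is lowest for *H2-D1*, *H2-K1* and *H2-T23* in all 4 comparisons, while for *B2m* it is highest in P35 HC and within the range of the others in both P14 comparisons.

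In each 16GsoT/T group, 1 library stood below the others in the heavy chains. These were library 6 in P14 CB, C19 in P35 CB, A18 in P14 HC, and library B11 in P35 HC. Library 6 held 3.43 CPM of *H2-D1* (143 counts), against 33.9 to 45.0 CPM in the other 5 libraries of P14 CB, or 10.8 times less than their median. C19 held 3.43 CPM (20 counts) against 63.9 to 136 CPM, 20.8 times less. These are the widest gaps, and both were in CB, where *H2-D1* is otherwise higher. A18 held 4.74 CPM (63 counts) against 12.9 to 18.1 CPM, 3.71 times less, and B11 held 9.72 CPM (25 counts) against 17.5 to 37.2 CPM, 3.08 times less. The 4 libraries were picked from these values, so the gaps are a description with no test.

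*H2-K1* was lowest in the same 4 libraries. It stood at 2.59 CPM in library 6 against 4.09 to 5.38 CPM in the other 5, at 2.75 against 7.39 to 19.98 CPM in C19, at 2.94 against 7.56 to 11.5 CPM in A18 and at 5.05 against 11.4 to 32.3 CPM in B11. The gap to the median was widest in B11, at 4.98 times, and smallest in library 6, at 1.69 times. *H2-T23* was also lowest in each of the 4, but by only 1.17 to 2.001 times below the median of the others.

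Among the class II chains, *H2-Eb1* was lowest in C19, A18 and B11 and second lowest in library 6, and *H2-Ab1* was lowest in library 6, A18 and B11 and second lowest in C19, at 0 to 11 counts per library. The light chain and the transporter genes did not share this order throughout. *B2m* was at 36.8 CPM in library 6 and 55.0 CPM in A18, inside the range of the others, and at 68.4 CPM in B11, above all 5 others. *Tap1* stood at 2.71 CPM in library 6 and 2.72 CPM in B11, within the range of the others, and *Tap2* at 8.16 CPM in B11, below only 1 other library. In C19, *B2m* and *Tap2* were the lowest of the 6, with 21.8 and 5.67 CPM, next to 22.6 and 6.25 CPM in the nearest mutant library, and so was *Cd74*. The within-group deviations of log2 CPM over 24 libraries, which share their library's scaling, had a Pearson r of 0.81 between *H2-D1* and *H2-K1*, 0.84 between *H2-D1* and *H2-T23*, and 0.06 between *H2-D1* and *B2m*. The 4 libraries picked by their *H2-D1* values are among the 24, so these r values partly restate their order and are no test.

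Of the 13326 genes with a mean of at least 1 CPM in every comparison, 24 were lowest, and 21 highest, in these same libraries of all 4 comparisons. With a gap of at least 2-fold in each comparison (0.1 CPM added to both values), 1 gene remained in each direction. *AA388235*, which the RefSeq table lists directly beside *H2-K1*, had 0 reads in all 4 libraries and between 9 and 199 reads, or 1.43 to 7.27 CPM, in the other 20. *Gpr179*, an orphan receptor gene at chr11:97193423-97213391, held 17.1 to 36.9 CPM in the 4 libraries and 0.161 to 1.53 CPM in the other 20. Both were chosen after their values were seen. *H2-D1* is among the 24 genes lowest in the 4 libraries by the choice of the libraries. The class I genes *H2-K1*, *H2-T22* and *H2-T23* are among the 24 too. *A930015D03Rik*, the gene of the opposite strand around *H2-T23*, is among the 21 highest. It stood 1.22 to 1.69 times above the highest of the other libraries. Of the 20 with a position, 7 lie on chromosome 17, which holds 577 of the 12458 positioned genes read, and 7 on chromosome 7, which holds 945. Those on chromosome 17 include *Zfp870*, *Cyp4f15* and *Hmga1*, at lower coordinates than *H2-K1*. Of the 18 positioned genes highest in the 4 libraries, 2 lie on each of these chromosomes.

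**Figure D3:**
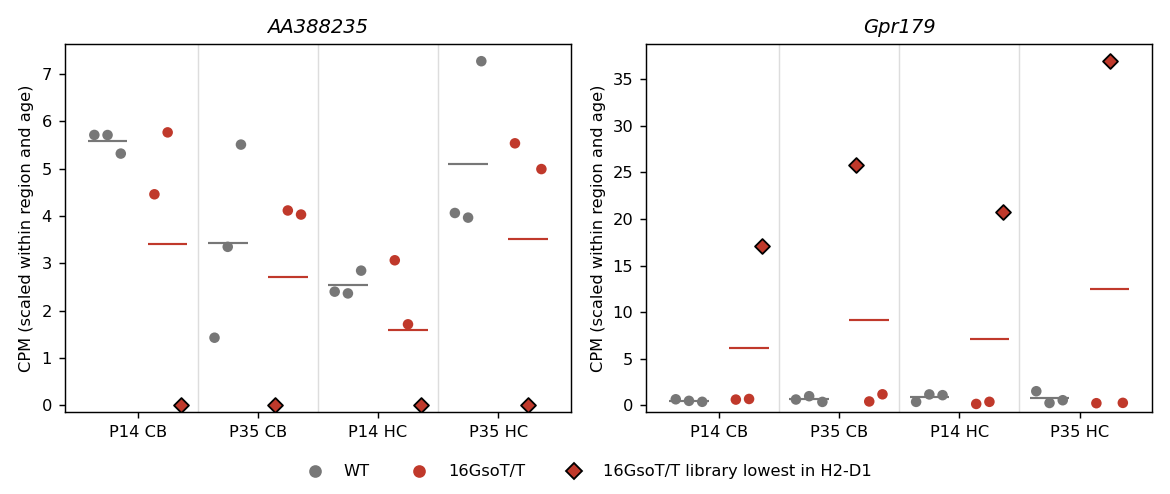
CPM of *AA388235* and *Gpr179* in each library (points) with group means (bars, n = 3), WT in grey and 16GsoT/T in red, and diamonds for the 16GsoT/T library lowest in *H2-D1* of each region and age. *AA388235* is at 0 in the 4 diamonds and at 1.43 CPM or more in the other 20 libraries, and *Gpr179* is at 17.1 CPM or more in the diamonds and at 1.53 CPM or less elsewhere.

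Most neighbours of the heavy chains did not stand apart in these libraries. Between *H2-Ke2* and *H2-M2* (chr17:34075766-37620497), 171 genes of the table lie, of which 73 to 85 per comparison had a mean of at least 2 CPM. In library 6, *H2-D1* was the only one of 73 at least 2-fold from the median of the other 5 libraries. In A18 these were *H2-D1* and *H2-K1* on the low side and *Msh5*, a meiotic mismatch repair gene, on the high side. In B11 they were *H2-K1*, *H2-D1*, *H2-T24*, *Egfl8* and *Lsm2* on the low side and *A930015D03Rik* and *Aif1* on the high side. In C19 they were *H2-D1*, *H2-K1*, *C4b*, *Egfl8*, *Notch4* and *Zfp57*, all low. WT libraries had up to 2 such genes on the low side and up to 4 on the high side. The median of the interval in these 4 libraries lay between -0.11 and 0.03 on the log2 scale.

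**Figure D4:**
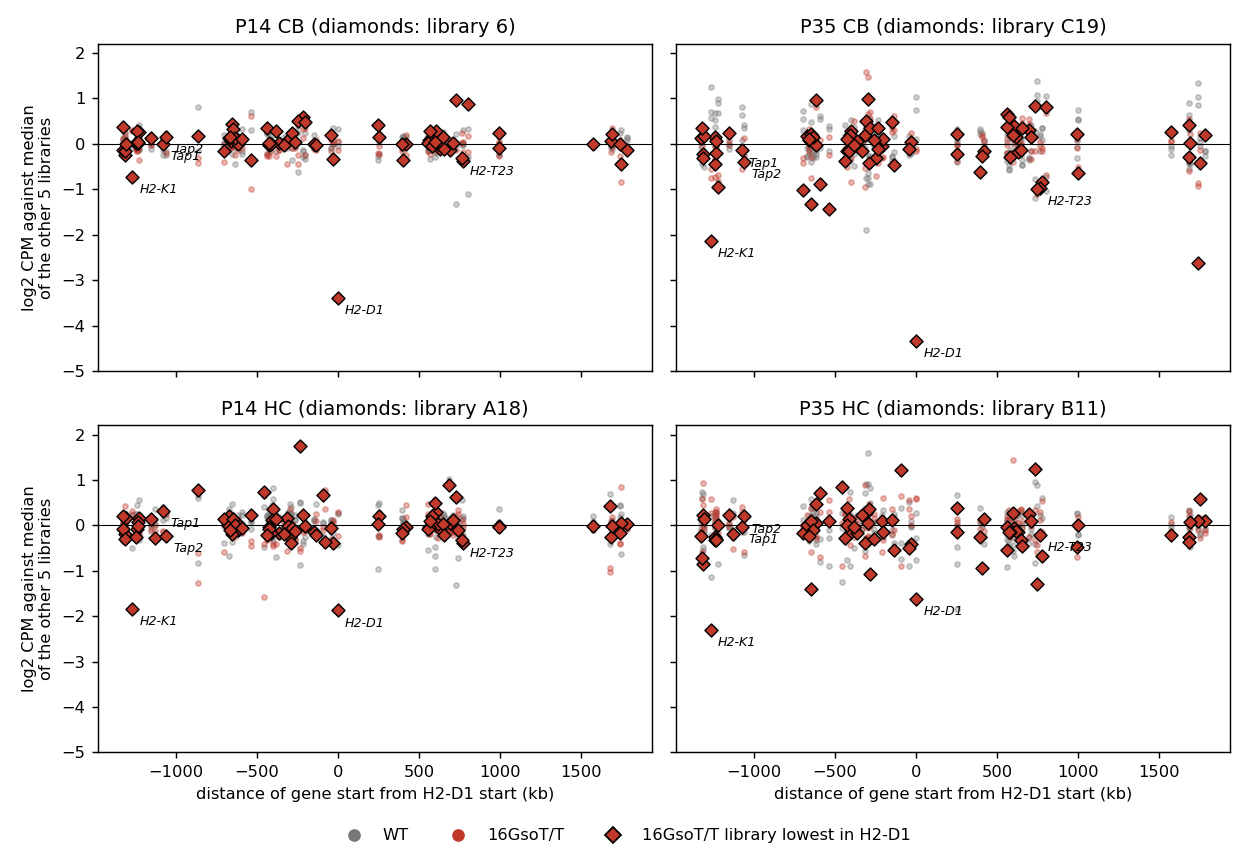
Log2 CPM of each gene of the H2 interval with a mean of at least 2 CPM, against the median of the other 5 libraries of the comparison (vertical axis), by the distance of its start from the start of *H2-D1* in kb (horizontal axis). Diamonds mark the 16GsoT/T library lowest in *H2-D1*, in which *H2-D1* lies at -3.39 (P14 CB), -4.34 (P35 CB), -1.87 (P14 HC) and -1.61 (P35 HC) while most other genes lie near 0.

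Read measures of the 4 libraries were as follows. The share of reads with more than one mapping position was the highest of its 16GsoT/T group in each: 13.9% in library 6 against 10.2% and 11.03%, 8.64% in C19 against 7.90% and 8.26%, 8.74% in A18 against 7.27% and 7.68%, and 8.75% in B11 against 7.59% and 8.45%. In P35 CB the shares of the WT libraries were 10.6% to 11.2%, above those of the mutant libraries. Their share of reads on genes differed too, at 37.6% to 37.7% against 42.3% to 42.4%. *Wbscr17* was on the mutant side in all 4. *Nnt*, a mitochondrial gene with a deletion in C57BL/6J, stood at 12.9 CPM in library 6, 11.5 in C19, 14.1 in A18 and 16.7 in B11, against 10.6 to 18.9 CPM in the other mutant libraries, and was not called in any genotype comparison. Gene counts do not hold the alleles, so whether the 4 libraries carry another H2 haplotype than the rest, and whether reads of another haplotype were lost in mapping to the reference, was not tested.

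Without these libraries the heavy chains changed as follows. In P35 CB without C19, *H2-D1* was called (-0.71, edgeR adjusted p = 0.0101), *H2-K1* stayed called at -0.98 (adjusted p = 0.0038), and *B2m* at -0.92 (adjusted p = 0.000197). C19 was picked by its *H2-D1* value, so the p of *H2-D1* without it is no test of that gene. In P14 HC without A18 the value of *H2-D1* went from -0.37 to 0.02 and that of *H2-K1* from -0.14 to 0.27. In P14 CB without library 6, *H2-D1* went from -0.66 to -0.13, and in P35 HC without B11 from 0.27 to 0.63, and none of these was called. With both low libraries left out of each interaction, a setting chosen after seeing the data, *B2m* and *H2-K1* were still called for age in CB. For region at P35, *B2m*, *H2-K1* (-1.59) and *H2-D1* (-1.34) were called. The libraries left out were picked by *H2-D1* and were lowest in *H2-K1* too, so the calls of these genes in this setting are a description. In P35 HC, the WT library N10 was the lowest of the WT libraries for *H2-K1* (11.4 against 21.7 and 25.2 CPM) and for *H2-D1* (17.5 against 24.6 and 29.9 CPM), and it is the one WT library there with the single index of the mutant libraries.

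The class II genes were near the limit of detection. *H2-Ab1* (chr17:34400154-34406363, plus strand) overlaps *H2-Aa* (chr17:34406276-34424772, minus strand), and *H2-Eb1* lies at chr17:34442828-34453144. The counts per library ran from 1 to 27 for *H2-Aa*, from 0 to 27 for *H2-Ab1* and from 1 to 25 for *H2-Eb1*, and 19, 19 and 12 of the 24 libraries held fewer than 10. *H2-Aa* and *H2-Ab1* passed the filter in P14 CB, the deepest libraries, and *H2-Eb1* in P14 CB and P14 HC. In P14 HC, *H2-Eb1* stood at 0.910, 1.01 and 1.06 CPM in WT and at 0.301, 0.807 and 0.857 CPM in 16GsoT/T (-0.60 ± 0.42), and it was not called. *H2-Eb1* was 4.35 times below the median of the other 5 libraries in C19 (1 count), 3.02 times in A18 (4 counts), 3.10 times in B11 (1 count) and 2.17 times in library 6 (11 counts). *H2-Ab1* was 2.72 times below it in library 6 (8 counts), 3.75 times in A18 (2 counts) and 1.24 times in C19 (4 counts), and had 0 counts in B11. Both chains were thus lowest or second lowest of 6 in each of the 4 libraries, at counts that leave wide counting error. *H2-Aa* was lowest in library 6 (8 counts) and ranked 2 to 4 from the lowest in the others.

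*Cd74*, at chr18:60963502-60972300, holds the place of the peptide in newly made class II molecules. Its counts ran from 3 to 100 per library. It stood at 1.22, 1.61 and 2.38 CPM in WT P14 CB against 1.46, 2.202 and 3.02 CPM in 16GsoT/T (0.38 ± 0.31), and at 1.75, 1.99 and 5.70 CPM in WT P35 CB against 0.687, 2.56 and 2.69 CPM in 16GsoT/T. In HC it stood at 0.819, 1.15 and 3.40 CPM against 1.66, 2.10 and 2.34 CPM at P14 (0.18 ± 0.47), and at 0.762, 1.06 and 3.64 CPM against 1.204, 3.33 and 3.89 CPM at P35 (0.57 ± 0.61). One WT library was well above the other two in each group but P14 CB, and the genotypes overlapped throughout. *Ciita*, the activator of class II genes, was called lower in P35 CB (-1.45 ± 0.37, edgeR adjusted p = 0.00916), at 0.687 to 0.994 CPM against 1.86 to 2.54 CPM.

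The wider lists are read in P35 CB against the 35.3% of all tested genes called there in either direction, and their shares of called genes lie near or below it. By direction, 2515 of all 14004 tested genes were called lower and 2432 higher. Of 7 tested class I heavy chain genes, 3 were called lower and none higher: *H2-K1*, *H2-T24* (-1.25 ± 0.24) and *Mr1* (-0.97 ± 0.27), which presents vitamin B metabolites. Of 12 tested genes for class I peptide supply and loading, 1 was called lower, *B2m*, and 1 higher, *Calr* (0.53 ± 0.14), the chaperone calreticulin, which DESeq2 did not call. The immunoproteasome and TAP genes of that list were not called. Of 3 tested genes of class II chains and chaperones, *Ciita* was called lower, though not by DESeq2. Of 9 tested genes for class II peptide supply and loading, *Ciita* was called lower and *Ctsb* (0.26 ± 0.05), a lysosomal protease, higher. In the other 3 genotype comparisons none of these lists had a called gene by edgeR or by DESeq2, with at most 2 genes per list at an unadjusted p of at most 0.05.

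Genes of the interferon response list had mostly negative values in P35 CB and mostly positive values in the other 3 comparisons. In P35 CB, 22 of 24 tested genes had a negative value and the median was -0.66. Of the 24, 9 were called lower and none higher. Of all 14004 tested genes, 35.3% were called there in either direction, and 2515 were called lower. DESeq2 called 3 of them. The largest called falls were *Irf7* (-1.47 ± 0.37), the interferon regulatory factor that amplifies type I interferon, *Gbp3* (-1.42 ± 0.28), a guanylate binding protein, *Bst2* (-1.26 ± 0.38), which tethers virions, and *Iigp1* (-1.09 ± 0.38), an immunity-related GTPase. In P14 CB, 24 of 25 tested genes had a positive value, against 50.8% of all tested genes, with a median of 0.39, and *Gbp3* was called higher (0.81 ± 0.15, edgeR adjusted p = 0.04995). In P14 HC, 22 of 25 had a positive value, against 50.6% of all genes, with a median of 0.43, where genotype and lane cannot be told apart, and none was called by edgeR or DESeq2, with 8 at an unadjusted p of at most 0.05. In P35 HC, 14 of 20 were positive, with a median of 0.26, and none was called by either, with 2 at an unadjusted p of at most 0.05. The summed level of the list was 159 to 171 CPM in 16GsoT/T P35 CB against 224 to 241 CPM in WT. The sum in C19, at 171 CPM, was the highest of the 3 mutant libraries.

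**Figure D5:**
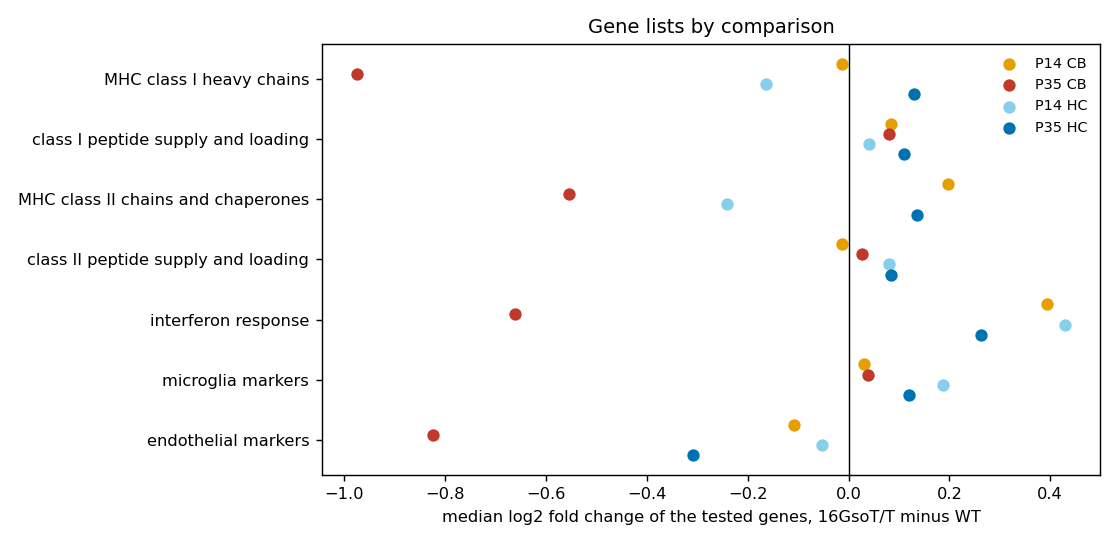
Median log2 fold change (16GsoT/T minus WT) over the tested genes of 7 lists in each comparison. The medians of the class I heavy chains (-0.97), the interferon response (-0.66) and the endothelial markers (-0.82) lie below 0 in P35 CB, while that of the microglia markers is 0.04.

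The genes most like *B2m* and *Cd74* were read from the within-group deviations of log2 CPM over 24 libraries, among 12987 genes with a mean of at least 1 CPM in every group. For *B2m*, which starts at chr2:121973422, they were *Lsm14b* (Pearson r = 0.81, chr2:179759692-179770170), *Eif3j* (0.81, chr2:121854282-121882334) and *Mbd4* (0.78, on chromosome 6). For *Cd74* they were *Serpinb8* (0.82), *Pdzd2* (0.80) and *Herpud2* (0.79). All of these r values are the highest of many over 24 libraries that share depth and scaling in groups. Whether the position of *Eif3j* near *B2m* bears on its r was not tested. Among the members, *B2m* was nearest to *Cd74* (0.40) and *H2-T23* (0.27).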

How the data were processed

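Libraries of poly(A) RNA from CB and HC were sequenced by the authors, for which the submitters' processing notes list TopHat2 2.0.8, HTSeq 0.6.1 and NCBIM37, and the authors deposited raw counts, 1 table per age, without normalization. The annotation and strand option are not given in the sources used here. The study's methods name a KAPA kit and the labels a TruSeq kit. Summary lines that name no gene were left out of library sizes and tests. They held 20.6% to 51.9% of reads on no feature and 7.27% to 13.9% of reads with several positions per library.

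Each comparison of 16GsoT/T with WT was fitted over its 6 libraries, and interactions over 12, with edgeR 4.0.16 in R 4.3.3: filterByExpr (minimum count 10, minimum total 15), TMM scaling, the quasi-likelihood test and Benjamini-Hochberg adjustment over all tested genes, with a call at 0.05. Standard errors are from the same fits. The fits were tested on simulated data with 200 changed genes. No source ties libraries of CB and HC to the same mouse. Alternatives were DESeq2 1.42.0, DESeq2 size factors, other filters, a fit of all 12 libraries of an age, index design as a covariate, and each library left out.

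The members and lists were chosen with earlier results of these data known. Named were the 10 members, *Nnt*, at most 4 called genes per list and comparison by size, and the 3 genes most correlated with *B2m* and *Cd74*. Other genes were named after their values were seen. From the H2 interval, at most 4 called genes per comparison were named too. The lists are class I heavy chains, class II chains, peptide supply of each class, interferon response, and markers of microglia, border macrophages, dendritic cells, B and T cells, endothelium, choroid plexus, meningeal fibroblasts, blood and neurons. No column of another sample was left out. Positions are from GENCODE vM1. Promoters are from the RefSeq table.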

Additional observations from a re-analysis of the deposited data

Results flagged for a closer look

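The genotype difference of 2 members differed between ages or regions by an interaction term. For age in CB, 2 of 10 tested members were called, where 18.6% of all tested genes were called. For region at P35 it was 1 of 7, where 9.61% of all tested genes were called. For *B2m*, the difference in P35 CB less that in P14 CB was -1.15 ± 0.25 (SE) on the log2 scale (edgeR adjusted p = 0.0057), and less that in P35 HC it was -1.19 ± 0.22 (adjusted p = 0.00249). All 3 mutant libraries of P35 CB lay below all 3 WT libraries. *H2-K1* differed between ages in CB by -1.35 ± 0.44 (adjusted p = 0.0408). The call of *H2-K1* was lost in 9 of 12 fits with 1 library left out. The CB libraries of P14 and P35 carried different lane labels and index designs, and differed in depth and in the share of reads on genes. Age cannot be told apart from these in the interaction terms, nor region and lane at P35. The 4 mutant libraries low in *H2-D1* were picked from their values and are described without a test.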

How the results depend on the processing

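*B2m* and *H2-K1* kept their direction and call in P35 CB under DESeq2, DESeq2 size factors, both other filters, the fit of all 12 libraries of the age and each library left out, with values of -1.07 to -0.85 for *B2m* and -1.57 to -0.98 for *H2-K1*. *H2-D1* there was called without a filter (-1.22, adjusted p = 0.00293) and not by DESeq2 (adjusted p = 0.414). The cause of these differences was not tested. The number of genes called over the whole table was less stable where few were called. It went from 81 to 241 by DESeq2 in P14 CB, from 124 to 399 by DESeq2 and 326 with all 12 libraries in P14 HC, and from 18 to 44 by DESeq2, 37 with all 12 libraries, 7 with at least 10 counts in every library and 134 without a filter in P35 HC. With 1 library left out it ranged from 33 to 181, 13 to 114 and 6 to 139. Members called ranged from 1 to 2 for genotype by age in CB, from 1 to 2 for genotype by region at P35 and from 1 to 3 between WT regions at P35. For genotype by region at P35, 3 members were called with both low libraries left out, a choice made from *H2-D1* values, and 2 without a filter.

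None of the values whose sign turned was called. *Tap2* in P35 HC turned to -0.0068 with the index design as a covariate, which sets N10 against the mutant libraries. With 1 library left out, the ranges that cross 0 were, in P14 CB, -0.13 to 0.32 for *H2-K1*, -0.0551 to 0.22 for *H2-T23*, -0.0713 to 0.34 for *B2m*, -0.0039 to 0.20 for *Tap1*, -0.0101 to 0.17 for *Tap2*, -0.32 to 0.62 for *H2-Aa*, -0.70 to 0.23 for *H2-Ab1* and -0.22 to 0.53 for *H2-Eb1*. In P35 CB the range of *Cd74* was -0.83 to 0.11. In P14 HC they were -0.43 to 0.27 for *H2-K1*, -0.73 to 0.0236 for *H2-D1*, -0.16 to 0.11 for *Tap1*, -0.16 to 0.0176 for *Tap2* and -0.18 to 1.04 for *Cd74*. In P35 HC they were -0.21 to 0.60 for *H2-K1*, -0.0244 to 0.16 for *H2-T23* and -0.10 to 0.24 for *Tap2*. No paired analysis was possible because the labels give the libraries names and no replicate numbers that groups share. Depth limits the class II chains most, with fewer than 10 counts in many libraries.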

Other observations

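Other cell type lists gave these values. Choroid plexus markers were called higher in P35 HC for 5 of 8 tested genes, where 0.135% of all tested genes were called, among them *Ttr* (4.26 ± 0.45 SE on the log2 scale), *Kcnj13* (4.28 ± 0.56), *Folr1* (4.02 ± 0.55) and *Clic6* (2.17 ± 0.36), and summed to 731 to 2448 CPM in 16GsoT/T against 257 to 344 CPM in WT. In P35 CB, where 35.3% of all tested genes were called, 4 of 9 were called lower, led by *Prlr* (-2.59 ± 0.67), *Folr1* (-2.35 ± 0.86), *Kcnj13* (-1.72 ± 0.60) and *Enpp2* (-1.36 ± 0.46), with 1 WT library at 3363 CPM summed against 207 CPM in the lowest, and DESeq2 called 1 of them. Border macrophage and dendritic cell markers had no called gene by edgeR or DESeq2 in any comparison. At an unadjusted p of at most 0.05, 2 macrophage markers were found in P14 CB and 3 in P14 HC, and 1, 2 and 1 dendritic cell markers in P14 CB, P14 HC and P35 HC. Of the B and T cell list, 1 gene passed the filter, in P14 CB, and it was not called. The macrophage sum was 15.5 to 19.7 CPM in 16GsoT/T P14 HC against 23.03 to 23.3 CPM in WT.

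In the endothelial list of P35 CB the largest called falls were *Slco1a4* (-1.51 ± 0.09), *Tek* (-1.32 ± 0.16), *Slco1c1* (-1.14 ± 0.14) and *Cldn5* (-1.07 ± 0.14), and in the fibroblast list *Lum* (-1.63 ± 0.26), *Ogn* (-1.35 ± 0.19), *Dcn* (-1.04 ± 0.11) and *Igf2* (-0.46 ± 0.11). *Slc2a1*, the glucose transporter of brain capillaries, was the called endothelial marker of P14 CB (-0.56 ± 0.10) and of P14 HC (-0.50 ± 0.09). Of the blood list, *Hba-a2* (-4.28 ± 0.25), *Hba-a1* (1.62 ± 0.18) and *Hbb-b1* (0.68 ± 0.21) were called in P35 CB, and since the alpha globin copies are near-identical, their counts are uncertain. Of 8 neuron markers, 4 were called in P35 CB, against 35.3% of all tested genes: *Snap25* (0.74 ± 0.06), *Prox1* (0.46 ± 0.10) and *Neurod1* (0.19 ± 0.07) higher and *Gabra6* (-0.27 ± 0.05) lower.

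In the H2 interval, 30 of 85 tested genes were called in P35 CB, or 35.3%, against 35.3% of all tested genes, and none in the other 3 comparisons by edgeR, where 5 (P14 CB), 14 (P14 HC) and 4 (P35 HC) had an unadjusted p of at most 0.05 and DESeq2 called 1, 1 and 0. The largest called changes of the interval were *Gm8801* (2.37 ± 0.72), *BC051142* (-1.85 ± 0.44), *Zfp57* (-1.51 ± 0.32), a regulator of imprinted genes, and *Hspa1b* (1.43 ± 0.40), an inducible heat shock protein.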
